A study of Mus musculus with 36 samples.

Results

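Gene expression was compared between the 12 h and 24 h arrays, taken as 1 group of 8 arrays, and the untreated arrays of the same mouse cell line. The members were every array whose title gave 12 h or 24 h of the tetracycline treatment, 4 arrays at each time, set against the untreated arrays, of which 3 were independent, out of 36 arrays in the series. The description ran over 8993 genes with enough values, of 9930 genes with a named probe. NIH3T3 is an established line of mouse embryonic fibroblasts. By their labels, all cells in the series carried a transfected Erbb2 gene. The titles of the treated arrays also name a tet-off system, in which tetracycline shuts the transgene off. The treated groups had received tetracycline for 12 h or 24 h. The untreated cells are labelled as Erbb2 transfected NIH3T3 without the treatment. By the sample labels, each array held cDNA of its own sample in channel 1 and of untreated transfected cells in channel 2, in one dye orientation for replicates 1 and 2 and the other for replicates 3 and 4. The design text speaks of a pair of untreated lines, and the labelling text of a reference pooled from control animals; which cells those words refer to could not be settled from the labels. The labels do not say that replicates came from separate cultures, so every p-value below measures only the spread between arrays. That spread was estimated together with the arrays of 1, 2 and 4 h. The labels also do not say whether the line is 1 clone.

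Erbb2 encodes a receptor tyrosine kinase of the EGF receptor family that signals mainly through the RAS, RAF and ERK cascade and through PI3K and AKT. In fibroblasts, ERK signalling drives the immediate early genes, a set transcribed within minutes of growth factor stimulation and without new protein synthesis, and overexpressed Erbb2 transforms NIH3T3 cells. Fibroblasts that leave the transformed state are known to change matrix, cytoskeletal and metabolic gene expression. Erbb2 itself was not measured among the named genes tested, so the shut-off was not checked here.

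The values were log2 ratios, in which 1 unit is a 2-fold difference, centred on the median of each array, with the sign turned where channel 1 was in Cy3. "Lower" and "fell" mean a lower turned ratio on the treated arrays. The files do not state which dye is the numerator, so these directions hold if the deposited ratio is Cy5 over Cy3. With Cy3 over Cy5 every sign below would be the opposite. Before turning, the sign of the strongest gene, Egr1, changed with the dye on all 8 treated arrays. Egr1 was ranked after turning, which favours genes whose sign changes with the dye. Its signs therefore cannot settle whether the ratio was written by dye or by sample. Over other strong probes the times differed, with more probes keeping their sign across dyes than changing it at 12 h, and fewer at 24 h. Among 144 probes beyond 1 log2 unit in the same direction on both Cy5 arrays of 12 h, 19.4% had the opposite sign on both Cy3 arrays before turning and 39.6% the same sign. At 24 h these shares were 29.7% and 19.6% of 138 probes. On the untreated arrays, with 1 independent Cy5 array, they were 5.7% and 73.0% of 1504 probes.

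The treated arrays held 18840 to 19413 values each and their interquartile range was 0.375 to 0.504 log2 units; that of the untreated arrays was 0.492 to 0.700. Over all probes, the turned values of pairs of treated arrays correlated weakly, with r between 0.011 and 0.066 within a dye and between -0.056 and 0.043 across dyes. The untreated array in Cy5 correlated with the 2 in Cy3 at -0.449 and -0.380 after turning, and these 2 with each other at 0.434. Over 19772 values, untreated replicates 1 and 2 were 0.771 log2 units apart with an SD of 0.0005, and they were counted as 1 array. Each difference from untreated therefore rested on 3 arrays, 1 in Cy5 and 2 in Cy3. The mean ratio of the 8 treated arrays against 0 was given as a second reading, because the sample labels give untreated transfected cells for channel 2 of every array and this reading uses no untreated array in channel 1. It depends on that label, which the labelling text does not match.

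With limma's moderated test and Benjamini-Hochberg adjustment over 14488 features, 69 genes differed between the pooled 12 and 24 h arrays and the untreated arrays, which is 0.767% of the genes tested. Of these, 49 were higher (0.545%) and 20 were lower (0.222%). Another 32 probes without a gene name were called, 25 higher and 7 lower. The median difference was 0.824 over the higher genes, -0.69 over the lower genes and -0.00878 over all genes, and 20 of the called genes differed by 2-fold or more. The 8 treated and 3 untreated values did not overlap for 61 of the 69 genes and for 1.97% of all genes; the 69 were chosen on these same arrays, so the 2 shares are no comparison. The difference had the same sign in each dye for all 69, which were again chosen on these same arrays, so this is no separate check. The Cy5 difference rests on 1 untreated array. The sizes were close for some genes, as for Mt1 with 1.18 in Cy5 and 1.22 in Cy3. For others they were far apart, as for Asic1 with 0.03 in Cy5 and 1.67 in Cy3. Without centring, the 101 called features became 41, 5 higher and 36 lower, and with quantile normalization 21, 10 higher and 11 lower, against 74 higher and 27 lower here; without centring the median over all genes was -0.20. The fit shared its spread with the arrays of 1, 2 and 4 h. A fit on the 11 treated and untreated arrays alone called 6 features. Of the 69 genes, only Egr1, Postn and H1f10 kept their call in that fit. Leaving out untreated replicate 1 gave 2225 called features, and leaving out untreated replicate 4 gave 51. With each of the 11 arrays left out in turn, 12 of the 69 genes kept their call throughout, 14 lost it without 1 array and 43 without 2 or more; 47 lost it without untreated replicate 4 and 42 without untreated replicate 3.

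The called genes were divided into 2 kinds by whether the treated ratio was also called against 0. For 39 of them, 23 higher and 16 lower, the treated ratio also differed from 0 in the same direction (adjusted p under 0.05), a call made for 2.34% of all genes. Their treated means had a median size of 0.52 and their untreated means 0.20. Even so, Dnajb8, Cd164, Rpl5, Tmsb4x and Pfn1 had untreated means farther from 0 than their treated means. For Dnajb8 these were -0.84 untreated and 0.66 treated. For 36 of these 39 every treated array lay on the called side of 0. The 39 were chosen by the mean of these same arrays against 0, so this count is no separate support. The other 30, 26 higher and 4 lower, had treated means with a median size of 0.13 and untreated means with a median size of 0.87, so their distance from 0 was on the untreated arrays. Both readings use the same 8 treated arrays. The genes described first below belong to the first kind.

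**Figure D1:**
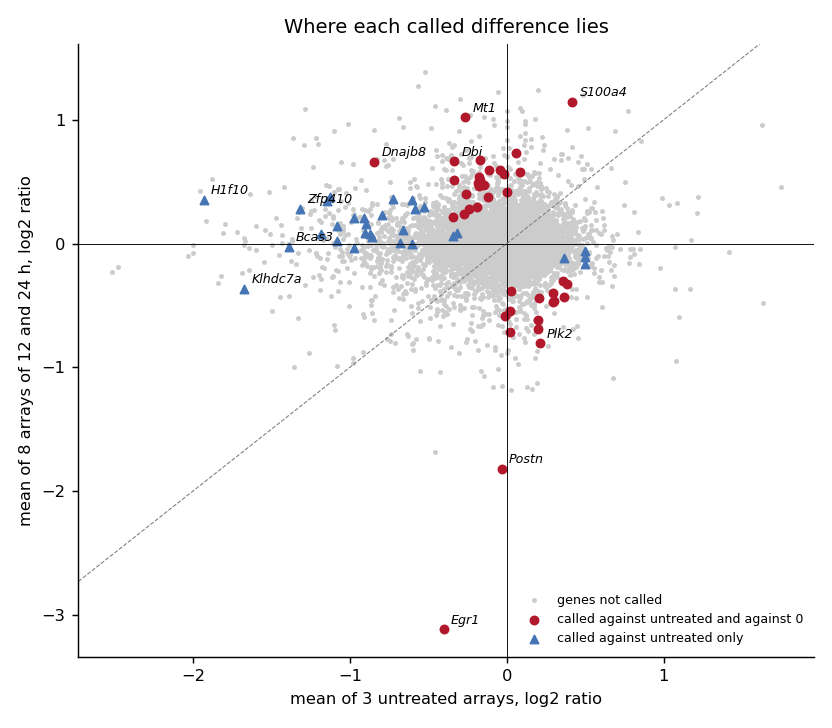
Each point is 1 gene: the mean turned log2 ratio of the 3 untreated arrays (horizontal axis) against that of the 8 arrays of 12 and 24 h (vertical axis), with the line of equal means dashed. The genes called against untreated and against 0 (circles) lie away from 0 on the vertical axis, with Egr1 and Postn lowest, while those called against untreated only (triangles) lie near 0 on the vertical axis and away from 0 on the horizontal axis.

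Among early response genes, Egr1 and Ier2 fell. Egr1, a zinc finger transcription factor induced by ERK and SRF, had the largest difference of any called gene. Its ratio on the 8 treated arrays lay between -4.24 and -1.82 with a median of -3.10, and on the untreated arrays it was -0.43, -0.56 and -0.22. Every treated array was below every untreated array, and the 4 arrays of 24 h were all below the 4 of 12 h. The difference from untreated was -2.76 ± 0.22 (SE, limma adjusted p = 3.24e-06), a 6.77-fold lower ratio. It was -2.46 in Cy5 and -2.96 in Cy3.

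Ier2, a nuclear protein of the immediate early class, lay between -0.78 and -0.28 with a median of -0.57 on the treated arrays and at -0.21, 0.03 and 0.24 on the untreated arrays. The groups did not overlap, though the untreated Cy5 array lay close to the highest treated array. The difference was -0.59 ± 0.12 (SE, limma adjusted p = 0.0259), and the call was lost without any 1 of 4 arrays, with an adjusted p of up to 0.178. Of 13 immediate early genes tested, Egr1 and Ier2 fell, beside 0.222% of all genes, none rose and 11 were not called. The median of the list was -0.19. Against 0, where 0.712% of all genes were called lower and 1.62% higher, 6 of the 13 were lower and none higher: Egr1, Ier2, Ccn1, Junb, Ier3 and Jun.

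The other four of these missed the threshold against the untreated arrays. Junb, a subunit of the AP-1 transcription factor, lay between -1.03 and -0.35 with a median of -0.63 on the treated arrays and at -0.15, -0.30 and -0.04 on the untreated arrays. All treated arrays were below all untreated arrays, and the difference was -0.50 ± 0.12 (SE, limma adjusted p = 0.0668). For Ccn1, a secreted matricellular protein that growth factors induce, the difference was -0.77 ± 0.18 (SE, limma adjusted p = 0.0604), with treated arrays between -1.19 and -0.58 with a median of -0.87 and untreated arrays at 0.18, -0.10 and -0.31. The 2 probes of Ccn1 gave -0.53 and -1.01, and neither passed on its own. Ier3, an early response gene linked to survival, differed by -0.52 ± 0.13 (SE, limma adjusted p = 0.0829). Jun had a treated mean of -0.32 and an untreated mean of -0.23, so that its difference was only -0.11 ± 0.12 (SE, limma adjusted p = 0.765). Klf6, Klf4, Srf, Nr4a1 and Fosl1 had differences from -0.21 to -0.02 with adjusted p of 0.484 or more. Ccn2, a relative of Ccn1, differed by -0.11 ± 0.23 (SE, limma adjusted p = 0.883). Klf2 was the only member with a positive difference, 0.99 ± 1.29 (SE, limma adjusted p = 0.811).

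Genes that feed back on ERK or lie on the ERBB route showed no called difference. None of 6 ERK and ERBB feedback and target genes was called, and their median was -0.02. The lowest was Mcl1, an anti-apoptotic BCL2 family member, at -0.50 ± 0.12 (SE, limma adjusted p = 0.0668). Its ratio against 0 was called, with a treated mean of -0.33. Dusp4, Dusp2, Spry2, Etv5 and Errfi1 had adjusted p of 0.482 or more. None of 8 ERBB receptors, ligands and adaptors was called either; Egfr, measured by 5 probes, differed by 0.25 ± 0.09 (SE, limma adjusted p = 0.264) and Shc1 by 0.41 ± 0.15 (SE, limma adjusted p = 0.260). Nfkbia, the inhibitor of NF-kB and itself an NF-kB target, had a treated mean of -1.04, with treated arrays between -1.99 and 0.08 with a median of -1.05 and untreated arrays at -0.42, -0.53 and -0.32. These groups overlapped, and the difference was -0.70 ± 0.25 (SE, limma adjusted p = 0.255).

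Plk2, a polo-like kinase first described as inducible by serum, fell. Its ratio lay between -1.24 and -0.47 with a median of -0.82 on the treated arrays and at 0.09, 0.17 and 0.37 on the untreated arrays. No treated array reached an untreated one. The difference was -1.01 ± 0.17 (SE, limma adjusted p = 0.00842), or 2.01-fold, and it was nearly the same at 12 h and 24 h (-1.02 and -1.0) and in Cy5 (-0.94) and Cy3 (-1.03). Its promoter is shown because it was the only one among the called genes in the RefSeq promoter table with a full cAMP response element. The 250 bases before its start, at chr13:110394794-110395043 on the plus strand (RefSeq, GRCm38.p6), read as follows, with the element in capitals.
Plk2: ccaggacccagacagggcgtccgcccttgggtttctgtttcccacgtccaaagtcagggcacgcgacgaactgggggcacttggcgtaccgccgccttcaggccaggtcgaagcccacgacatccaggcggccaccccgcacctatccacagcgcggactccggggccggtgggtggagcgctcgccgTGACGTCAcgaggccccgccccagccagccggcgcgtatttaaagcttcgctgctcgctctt
The element TGACGTCA, which reads the same on both strands, began 62 bases before the start. It was found in 508 of 32851 mouse promoters of this length (1.55%). Of the 69 called genes, 53 had 1 or more promoters in the table, 60 in all. For AP-1 the pattern TGANTCA, with any base at N, was searched on both strands. It was found in 2 of the 60 promoters, those of Entpd2 and S100a11, and in 6.75% of all promoters. A match is a description of the letters and says nothing of whether a factor binds there.

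**Figure D2:**
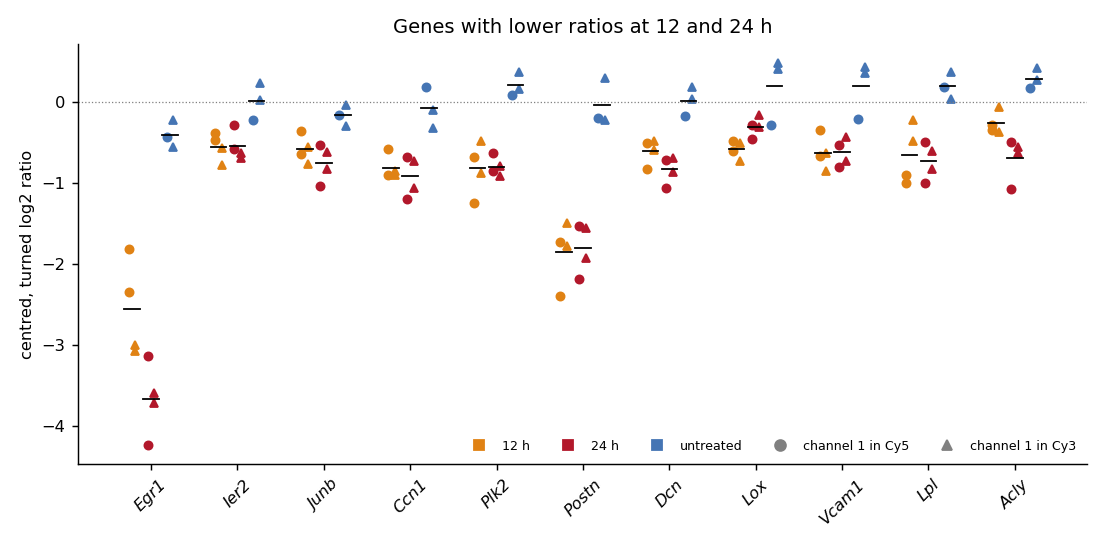
Turned log2 ratio of 11 genes on each array, with 12 h, 24 h and untreated arrays side by side, circles for channel 1 in Cy5, triangles for Cy3 and a line at each group's mean. All 8 treated values lie below all 3 untreated values for each of these genes except Lox, with Egr1 and Postn farthest from 0; Junb and Ccn1 did not pass the adjusted threshold.

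Genes of the extracellular matrix moved in both directions. Of 23 matrix glycoproteins and cross-linking enzymes tested, Postn, Dcn and Lox fell and Sparc rose, and 19 were not called. Over all genes, 0.222% were called lower and 0.545% higher. The list's median was -0.09. Postn, periostin, a matricellular protein of mesenchymal cells, lay between -2.39 and -1.49 with a median of -1.75 on the treated arrays and at -0.19, -0.22 and 0.31 on the untreated arrays. The groups were more than 1 log2 unit apart. The difference was -1.78 ± 0.22 (SE, limma adjusted p = 3.25e-04), a 3.44-fold lower ratio, with -1.81 at 12 h and -1.76 at 24 h.

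Dcn, decorin, a small proteoglycan that binds collagen fibrils, lay between -1.06 and -0.47 with a median of -0.70 on the treated arrays and at -0.17, 0.19 and 0.04 on the untreated arrays. All treated arrays were lower. The difference was -0.69 ± 0.15 (SE, limma adjusted p = 0.0348), and leaving out any 1 of 8 arrays ended the call, with an adjusted p of up to 0.138. Lox, the enzyme that cross-links collagen and elastin, lay between -0.72 and -0.16 with a median of -0.47 on the treated arrays and at -0.28, 0.41 and 0.49 on the untreated arrays, where the untreated Cy5 array lay inside the treated range. The difference was -0.61 ± 0.12 (SE, limma adjusted p = 0.0244), or -0.17 in Cy5 and -0.87 in Cy3. Its 3 probes gave -0.61, -0.54 and -0.70, none of which passed on its own. The call was lost without untreated replicate 3 or 4, with an adjusted p of up to 0.157.

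Sparc, a collagen-binding glycoprotein, lay between 0.24 and 0.54 with a median of 0.37 on the treated arrays and at -0.14, -0.24 and 0.03 on the untreated arrays. The treated arrays were all higher, and the difference was 0.49 ± 0.09 (SE, limma adjusted p = 0.0183). It lost the call without untreated replicate 3 (adjusted p = 0.0995). Pcolce, which enhances the processing of procollagen, was higher too, by 0.39 ± 0.08 (SE, limma adjusted p = 0.0259). Its difference was 0.23 at 12 h and 0.55 at 24 h, and of its 2 probes 1 passed (0.59) and 1 did not (0.20); its call was lost without untreated replicate 3 or 24 h replicate 3. None of 13 collagen genes was called and their median rounded to 0.00. Col1a1 differed by 0.12 ± 0.09 (SE, limma adjusted p = 0.623) and Col1a2 by -0.00 ± 0.10 (SE, limma adjusted p = 0.999). None of 17 matrix proteases and inhibitors was called; the lowest p was that of Adamts1, a secreted metalloprotease, at -0.78 ± 0.20 (SE, limma adjusted p = 0.082) with a treated mean of -0.66.

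At the cell surface, Vcam1, an adhesion molecule, fell. Its ratio lay between -0.85 and -0.35 with a median of -0.65 on the treated arrays and at -0.20, 0.36 and 0.44 on the untreated arrays. The groups did not overlap, and the difference was -0.81 ± 0.13 (SE, limma adjusted p = 0.00808). It was -0.38 in Cy5 and -1.05 in Cy3, and without untreated replicate 4 the adjusted p was 0.0564. Kcnh1, a voltage-gated potassium channel, fell by 0.69 on the log2 scale (SE 0.14, limma adjusted p = 0.0244), and Heph, a copper-dependent ferroxidase, fell by 0.78 (SE 0.16, limma adjusted p = 0.0259). Their calls were lost without 3 and 4 of the arrays left out in turn. For Heph the untreated Cy5 array, at -0.26, lay inside the treated range of -0.79 to -0.16. The Heph difference was -0.135 in Cy5 and -1.15 in Cy3. Cd164, a sialomucin, rose by 0.56 ± 0.10 (SE, limma adjusted p = 0.0103), with treated arrays between 0.05 and 0.47 with a median of 0.22 and untreated arrays at -0.24, -0.36 and -0.43; without untreated replicate 4 its adjusted p was 0.0597. Gpc1, a heparan sulfate proteoglycan of the membrane, rose by 0.63 ± 0.13 (SE, limma adjusted p = 0.0317) and lost its call without any 1 of 6 arrays.

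A pair of lipid enzymes fell. Lpl, lipoprotein lipase, lay between -1.002 and -0.22 with a median of -0.71 on the treated arrays and at 0.19, 0.04 and 0.37 on the untreated arrays. The ranges did not overlap. The difference was -0.88 ± 0.16 (SE, limma adjusted p = 0.0145), a 1.84-fold lower ratio, and its adjusted p was 0.091 without untreated replicate 4. Acly, the enzyme that makes cytosolic acetyl-CoA from citrate, lay between -1.07 and -0.05 with a median of -0.43 on the treated arrays and at 0.17, 0.42 and 0.28 on the untreated arrays. Each treated array was lower than each untreated array. The difference was -0.76 ± 0.16 (SE, limma adjusted p = 0.0348), and the call was lost without any 1 of 7 arrays, with an adjusted p of up to 0.148. Acly was the only called gene among 19 genes of cholesterol and fatty acid synthesis, whose median was 0.11. The share called lower over all genes was 0.222%. Fasn differed by 0.24 ± 0.18 (SE, limma adjusted p = 0.629) and Scd1 by 0.01 ± 0.16 (SE, limma adjusted p = 0.996).

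Dbi, which binds acyl-CoA esters, rose, with the smallest adjusted p of any gene called higher. Its ratio lay between 0.39 and 1.17 with a median of 0.64 on the treated arrays and at -0.18, -0.45 and -0.37 on the untreated arrays. The ranges were well apart. The difference was 0.99 ± 0.13 (SE, limma adjusted p = 8.50e-04), a 1.99-fold higher ratio, and it kept its call without each array in turn (0.93 to 1.05).

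Glycolytic genes that were called rose. Eno1b, listed by the annotation as an enolase, lay between 0.39 and 1.20 with a median of 0.64 on the treated arrays and at 0.04, -0.40 and -0.16 on the untreated arrays. The groups did not overlap and the difference was 0.85 ± 0.14 (SE, limma adjusted p = 0.00808). Eno1b is nearly identical in sequence to Eno1, so a cDNA probe cannot tell them apart. Pkm, pyruvate kinase, lay between 0.18 and 0.88 with a median of 0.59 on the treated arrays and at -0.27, -0.02 and -0.05 on the untreated arrays. All treated arrays were higher, and the difference was 0.69 ± 0.14 (SE, limma adjusted p = 0.0273), lost without any 1 of 4 arrays. Of 18 glycolysis genes tested, these 2 rose, beside 0.545% of all genes, none fell and 16 were not called. The median was 0.08. Against 0, where 1.62% of all genes were higher, 5 of the 18 were higher: Eno1b, Pkm, Aldoa, Gapdh and Pgam1.

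Gapdh, an enzyme of glycolysis that many studies normalise to, was not called as the mean of its 3 probes, 1.42 ± 0.38 (SE, limma adjusted p = 0.113). Its first 2 probes passed on their own, with 1.06 ± 0.12 (SE, limma adjusted p = 1.88e-04) and 1.39 ± 0.09 (SE, limma adjusted p = 9.65e-08), while the third had 1.77 ± 1.25. The probe mean lay between 0.68 and 1.23 with a median of 0.85 on the treated arrays and at 0.03, -0.90 and -0.59 on the untreated arrays, without overlap. Among the other reference genes, Ppia, a peptidyl-prolyl isomerase, differed by 0.37 ± 0.10 (SE, limma adjusted p = 0.101) with a treated mean of 0.68 that was called against 0. Actb, Tbp, B2m and Rplp0 differed by 0.07, -0.01, -0.00 and 0.11. None of the 7 reference genes tested was called, and their median was 0.11 with an upper quartile of 0.38.

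Genes linked to motility and the transformed state rose where they were called. S100a4, a calcium-binding protein that interacts with non-muscle myosin, lay between 0.71 and 1.48 with a median of 1.29 on the treated arrays and at 0.08, 0.54 and 0.64 on the untreated arrays. The lowest treated array was above the highest untreated one. The difference was 0.73 ± 0.14 (SE, limma adjusted p = 0.02), and it was 0.44 at 12 h and 1.02 at 24 h. S100a11, a relative of it, lay between -0.11 and 0.94 with a median of 0.53 on the treated arrays and at -0.18, -0.26 and -0.12 on the untreated arrays. The lowest treated array, of 12 h, barely exceeded the highest untreated one. The difference was 0.67 ± 0.14 (SE, limma adjusted p = 0.0244), lost without untreated replicate 3 or 4 (adjusted p of up to 0.105). Of 21 genes of this list, these 2 rose, beside 0.545% of all genes, none fell and 19 were not called. The median was 0.09. Against 0, 8 were higher and 1 lower, beside 1.62% and 0.712% of all genes. The 8 were S100a4, S100a11, S100a6, S100a10, Tm4sf1, Lgals1, Lgals3 and Anxa2, and the lower one was Itga6, an integrin subunit.

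Cytoskeletal genes moved both ways. Tuba1a, an alpha tubulin, lay between 0.27 and 0.67 with a median of 0.35 on the treated arrays and at -0.75, -0.04 and 0.00 on the untreated arrays. All treated arrays were higher, and the difference was 0.69 ± 0.12 (SE, limma adjusted p = 0.0118), kept without each array in turn (0.47 to 0.80). Tuba1c, a close relative whose cDNA may hybridise to the same probe, rose by 0.63 ± 0.13 (SE, limma adjusted p = 0.0305) and lost its call without any 1 of 7 arrays. Pfn1, profilin, which promotes actin assembly, rose by 0.49 ± 0.09 (SE, limma adjusted p = 0.0157), with 0.71 on 1 probe and 0.27 on the other. Tmsb4x, which sequesters actin monomers, lay between -0.77 and 0.04 with a median of -0.27 on the treated arrays and at -0.05, 0.57 and 0.64 on the untreated arrays. The groups overlapped through the untreated Cy5 array, and the difference was -0.69 ± 0.14 (SE, limma adjusted p = 0.0259). Pfn1 lost its call without untreated replicate 4 (adjusted p = 0.109), and Tmsb4x without 3 arrays (adjusted p of up to 0.158). The other 22 of 24 actin and contractile genes were not called and the list's median was 0.01. Over all genes, 0.545% were called higher and 0.222% lower.

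Of the list of metal and oxidative stress genes, Mt1 and Ftl1 rose. Mt1, a metallothionein that binds zinc and copper, lay between 0.54 and 1.88 with a median of 0.98 on the treated arrays and at 0.06, -0.27 and -0.58 on the untreated arrays. Its treated values were all above its untreated values. The difference was 1.24 ± 0.22 (SE, limma adjusted p = 0.0134), a 2.36-fold higher ratio, with an adjusted p of 0.0866 without untreated replicate 4. Mt2, its neighbour with 2 probes, differed by -0.27 ± 0.33 (SE, limma adjusted p = 0.791). Ftl1, the light chain of the iron store ferritin, lay between 0.14 and 0.40 with a median of 0.32 on the treated arrays and at -0.02, -0.35 and -0.20 on the untreated arrays. Again the groups were apart, and the difference was 0.49 ± 0.10 (SE, limma adjusted p = 0.0226), lost without untreated replicate 3 or 4. Fth1, the heavy chain, with 4 probes, differed by 0.20 ± 0.09 (SE, limma adjusted p = 0.371). The other 21 of the 23 genes tested were not called, and the list's median was 0.06. Over all genes, 0.545% were called higher. Heph, the ferroxidase that fell, is not on this list. Hmox1, heme oxygenase, differed by -0.02 ± 0.09 (SE, limma adjusted p = 0.949).

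**Figure D3:**
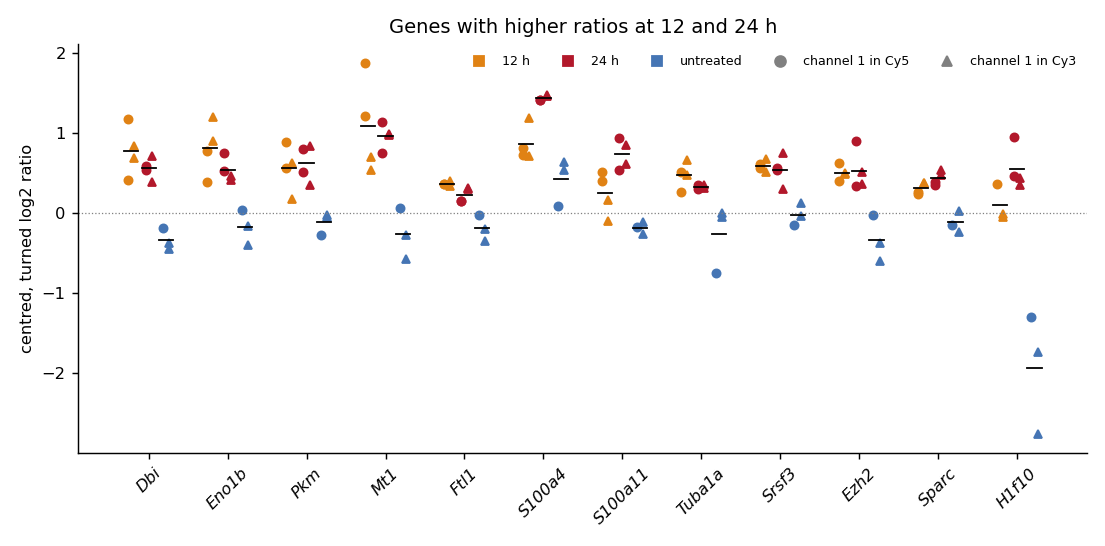
Turned log2 ratio of 12 genes with higher ratios, drawn as in the plot of lower genes. All treated values lie above all untreated values for each gene, and H1f10, at the right end, has untreated values from -2.76 to -1.30 and treated values from -0.05 to 0.94.

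Srsf3, Ezh2, Kpna2 and Ptma, which encode nuclear proteins or a nuclear import factor, rose. Srsf3, a splicing factor, lay between 0.29 and 0.75 with a median of 0.56 on the treated arrays and at -0.15, -0.03 and 0.12 on the untreated arrays. The groups were apart and the difference was 0.58 ± 0.10 (SE, limma adjusted p = 0.0118), with 0.66 and 0.51 on its 2 probes; the call held without each array in turn (0.51 to 0.65). Ezh2, the catalytic subunit of Polycomb repressive complex 2, lay between 0.34 and 0.89 with a median of 0.49 on the treated arrays and at -0.03, -0.60 and -0.38 on the untreated arrays. All treated values were higher, and the difference was 0.82 ± 0.15 (SE, limma adjusted p = 0.0118); without untreated replicate 3 the adjusted p was 0.0687. Kpna2, an importin that carries proteins into the nucleus, lay between 0.28 and 1.09 with a median of 0.75 on the treated arrays and at 0.55, -0.33 and -0.06 on the untreated arrays, where the untreated Cy5 array lay within the treated range. Its difference was 0.65 ± 0.13 (SE, limma adjusted p = 0.0237), or 0.94 at 12 h and 0.36 at 24 h, and was lost without untreated replicate 3 or 4 (adjusted p of up to 0.141). Ptma, prothymosin, rose by 0.45 ± 0.10 (SE, limma adjusted p = 0.0485) and lost its call without any 1 of 9 arrays.

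Of 48 splicing and RNA-binding protein genes, Srsf3, Matr3 and Hnrnpa3 were called higher, beside 0.545% of all genes. None was called lower, and the median was 0.07. Matr3, a nuclear matrix protein, differed by 1.15 ± 0.21 (SE, limma adjusted p = 0.0159) and Hnrnpa3 by 1.48 ± 0.34 (SE, limma adjusted p = 0.0485), but their treated means were 0.21 and 0.38 and their untreated means -0.91 and -1.13. For Hnrnpa3 the untreated Cy5 array was at 0.17, inside the treated range, and the call was lost without any 1 of 8 arrays; Matr3 lost its call without untreated replicate 4 (adjusted p = 0.116). Against 0, 6 members were higher, beside 1.62% of all genes: Srsf3, Srsf2, Hnrnpa2b1, Hnrnpa1, Hnrnpm and Rbm3.

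Genes of the cell cycle were not called in the pooled comparison. No gene was called there among 32 of the G1/S transition and replication or 30 of G2/M and mitosis. The median was 0.15 for each list, against -0.00878 for all genes. Against 0, 5 of each list were higher and none lower: Cdk4, Mcm4, Mcm7, Rpa1 and Pcna in the first and Cdk1, Ccna2, Racgap1, Cks1b and Top2a in the second, where 1.62% of all genes were called higher. The median of the G1/S list was 0.35 at 12 h and 0.07 at 24 h, and that of the G2/M list 0.21 and 0.09. Mcm4, a subunit of the replicative helicase, differed by 0.87 at 12 h and 0.30 at 24 h, and Cdk1, the mitotic kinase, by 0.70 and 0.05. Taken alone, the 12 h difference of Cdk1 passed the threshold (limma adjusted p = 0.0332) and its 24 h difference did not (limma adjusted p = 0.934). Mcm4 passed at neither time (limma adjusted p = 0.167 and 0.703). None of 20 growth arrest and cell cycle inhibitor genes was called (median -0.10), and none was called against 0; Cdkn1a differed by -0.02, Cdkn1b by -0.13 and Gas1 by -0.07.

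Cytosolic ribosomal protein genes had the lowest median of the lists, -0.22 over 53 genes. Of these, 2 were lower, Rpl5 and Rps3a1, beside 0.222% of all genes, and 51 were not called. Rpl5, of the large subunit, lay between -0.70 and 0.01 with a median of -0.25 on the treated arrays and at 0.04, 0.54 and 0.50 on the untreated arrays. The groups touched without overlap, since the highest treated array was at 0.01 and the untreated Cy5 array at 0.04. The difference was -0.64 ± 0.12 (SE, limma adjusted p = 0.0159), lost without untreated replicate 3 or 4 (adjusted p of up to 0.0942). Rps3a1, of the small subunit, differed by -0.68 ± 0.14 (SE, limma adjusted p = 0.0308), with a treated mean of -0.17 and an untreated mean of 0.50, and lost its call without any 1 of 7 arrays. The median untreated ratio of the list was 0.20 and its median against 0 on the treated arrays was -0.07, with 1 gene higher and 1 lower, beside 1.62% and 0.712% of all genes. Translation factor genes had a median of -0.13 and no call among 45.

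Of the histone genes, 1 of 21 was higher and 1 lower, beside 0.545% and 0.222% of all genes, and both rested on the untreated arrays. H1f10, a linker histone, lay between -0.05 and 0.94 with a median of 0.36 on the 7 treated arrays with a value and at -1.30, -2.76 and -1.74 on the untreated arrays. The treated arrays were near 0 and the untreated arrays far below. The difference was 2.26 ± 0.46 (SE, limma adjusted p = 0.0259), the largest of any gene called higher, and its call was lost without 12 h replicate 1 or untreated replicate 3 or 4 (adjusted p of up to 0.148). H3f3a, a replacement histone H3, differed by -0.48 ± 0.11 (SE, limma adjusted p = 0.0424), with a treated mean of -0.12 and an untreated mean of 0.36, and lost its call without any 1 of 9 arrays.

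H1f10 was typical of the larger called increases. Of the 15 genes with the largest positive difference, 13 had treated means that were not called against 0; the exceptions were Dnajb8 and Mt1. Zfp410, a zinc finger protein, differed by 1.68 ± 0.29 (SE, limma adjusted p = 0.011), with a treated mean of 0.28 and an untreated mean of -1.32. Hsd17b11, a hydroxysteroid dehydrogenase, differed by 1.53 ± 0.27 (SE, limma adjusted p = 0.0112), with means of 0.34 and -1.15, and Bcas3 by 1.37 ± 0.23 (SE, limma adjusted p = 0.0103), with means of -0.02 and -1.39. Without untreated replicate 4 the adjusted p was 0.0849 for Zfp410 and 0.0597 for Bcas3, and without untreated replicate 3 it was 0.0685 for Hsd17b11. Among the lower genes, Entpd2, an enzyme that splits extracellular ATP, was of this kind, with treated arrays between -0.39 and 0.27 with a median of -0.10, untreated arrays at 0.60, 0.33 and 0.56 and a difference of -0.64 ± 0.10 (SE, limma adjusted p = 0.00808). These groups did not overlap, and the call held without each array in turn.

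Dnajb8, a co-chaperone of the DNAJ family, differed by 1.49 ± 0.24 (SE, limma adjusted p = 0.00808), with treated arrays between 0.16 and 1.55 with a median of 0.64 and untreated arrays at -0.27, -1.42 and -0.85, and its ratio was called against 0 as well. The treated arrays were all above 0 and the untreated arrays all below. Among the genes lower on both readings were also Med13l, a Mediator subunit, at -0.79 ± 0.14 (SE, limma adjusted p = 0.0145), and Btbd7 at -0.60 ± 0.11 (SE, limma adjusted p = 0.0118); the call was lost without untreated replicate 4 for both, and without untreated replicate 3 for Med13l. Impact, a regulator of translation under stress, rose by 0.73 ± 0.14 (SE, limma adjusted p = 0.0184), lost without untreated replicate 3 or 4.

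Some genes had probes that did not move together. Zkscan1, a zinc finger protein, was called higher as the mean of 2 probes, 0.93 ± 0.20 (SE, limma adjusted p = 0.0305), but the probes gave 2.06 and -0.20, and the treated mean was -0.04. Them7 was called at 1.03 ± 0.21 (SE, limma adjusted p = 0.0259) from probes at 2.66 and -0.53, and the second remained alone, at -0.53, when a value was required on all 11 arrays. Gps2, a component of a corepressor complex, was called at 0.39 ± 0.09 (SE, limma adjusted p = 0.0488) from 3 probes at 1.12, 0.04 and -0.01. Dcst1 was called lower, -0.43 ± 0.07 (SE, limma adjusted p = 0.00808), from probes at -0.82 and -0.05, and kept its call without each array in turn. Gps2 lost its call without any 1 of 8 arrays (adjusted p of up to 0.207), Zkscan1 without any 1 of 7 (up to 0.111), and Them7 without 12 h replicate 3 or untreated replicate 4 (up to 0.071). Mid1, a microtubule-associated ubiquitin ligase, was not called as a mean (0.76 ± 0.43 (SE, limma adjusted p = 0.5)), while 1 of its probes gave 1.22 ± 0.12 (SE, limma adjusted p = 5.20e-05) and the other 0.30 ± 0.89.

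**Figure D4:**
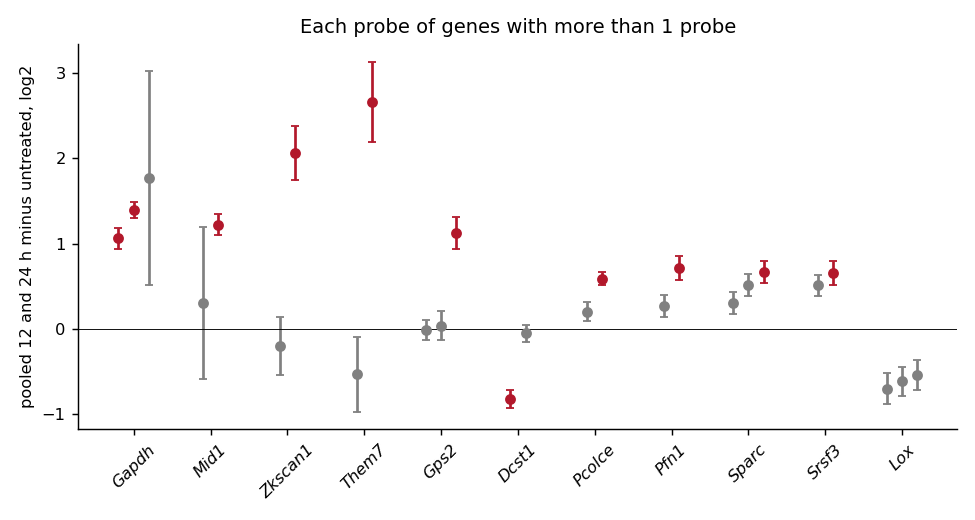
Difference between the pooled 12 and 24 h arrays and the untreated arrays for each probe of 11 genes, in log2 units, with bars of 1 SE and red for probes that passed on their own. The probes of Lox, Sparc and Srsf3 lie close together, whereas those of Zkscan1 (2.06 and -0.20), Them7 and Mid1 do not.

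The 24 h arrays were then set against the 12 h arrays, a comparison that uses the untreated arrays only in the estimate of the spread. No feature was called, with 1057 of 14488 at an unadjusted p under 0.05 in limma. Among the 69 genes called in the pooled comparison, the difference between the times ran from -1.11 to 0.58, and 12 had an unadjusted p under 0.05. The smallest was that of Egr1, which differed from untreated by -2.20 at 12 h and by -3.32 at 24 h, with a difference between the times of -1.11 ± 0.23 (SE, limma adjusted p = 0.204). S100a4 (0.58 ± 0.15, limma adjusted p = 0.307), Pcolce, S100a11 and Lxn, a carboxypeptidase inhibitor, were higher at 24 h than at 12 h by 0.32 to 0.58. Kpna2 (-0.58 ± 0.14, limma adjusted p = 0.280) and Tuba1c (-0.48 ± 0.14, limma adjusted p = 0.358) were lower at 24 h. Genes outside the 69 differed between the times by similar amounts. Cdk1 was lower at 24 h (-0.66 ± 0.13, limma adjusted p = 0.181), with a smaller p than Egr1, and Uqcr10 was higher (0.68 ± 0.17, limma adjusted p = 0.307). None of these time differences passed the adjusted threshold.

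The remaining lists held no called gene. These were heat shock and chaperonin genes (23 tested, median -0.10), unfolded protein response genes (18, -0.03), lysosomal genes (26, 0.12), proteasome genes (31, 0.04), oxidative phosphorylation genes (78, 0.01), mitochondrial ribosomal protein genes (60, -0.05), solute carriers (191, 0.01), interferon and acute phase genes (25, -0.05), apoptosis and survival genes (17, 0.05), TGF-beta, BMP and WNT linked genes (25, 0.04), and genes of serine, one-carbon and amino acid synthesis (15, -0.07). Against 0, where 1.62% of all genes were called higher and 0.712% lower, lysosomal genes had 6 higher and none lower, oxidative phosphorylation genes 7 and none, and proteasome genes 5 and none, with Ctsl, the protease cathepsin L, at a treated mean of 0.69 and an untreated mean of 0.39.

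Markers of fibroblasts were checked against the label, within the limit that a ratio gives no level. Of 15 tested, S100a4 rose, Dcn fell and 13 were not called (median -0.01), beside 0.545% higher and 0.222% lower over all genes. Vim, measured by 2 probes, differed by -0.01 and Pdgfrb by -0.05. In the reading against 0, 2 of the 15 were higher and 2 lower, beside 1.62% and 0.712% of all genes. No marker of epithelium (12 tested, median -0.15), blood cells (9, 0.01), endothelium (8, -0.01), liver (12, -0.17) or muscle and nerve (14, -0.03) was called. When read against 0, 1 epithelial marker was lower and no other marker of these lists was called. In total RNA from a culture, a change in the share of cells with a transcript and a change in the amount per cell cannot be told apart.

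**Figure D5:**
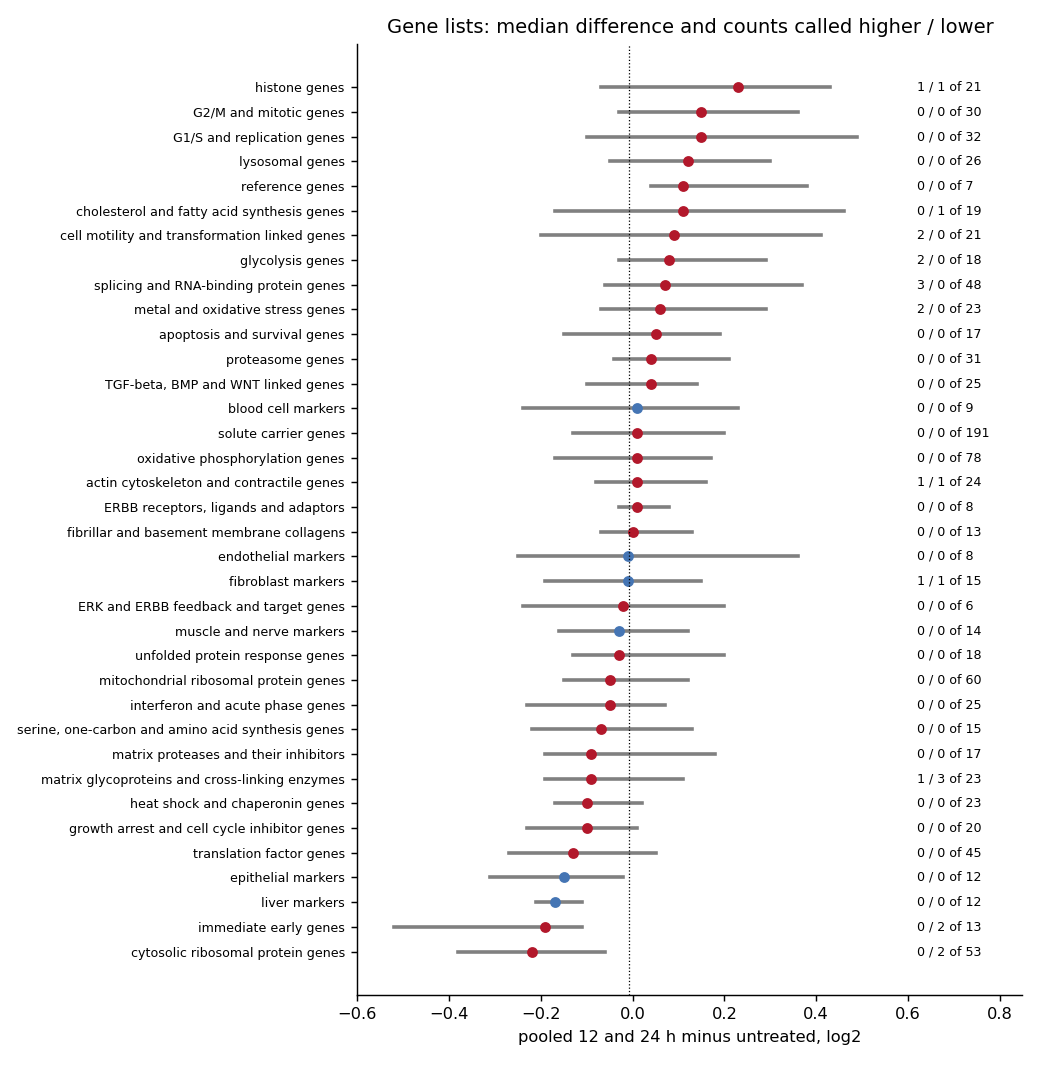
Median difference (points, red for pathway lists and blue for cell type markers) and interquartile range (bars) of each gene list, in log2 units, with the counts called higher and lower out of the genes tested and a dotted line at the median of all genes. Cytosolic ribosomal protein genes (-0.22) and immediate early genes (-0.19) have the lowest medians and histone genes (0.23) the highest; most lists have no called member.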

How the data were processed

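Two-colour cDNA arrays were measured, with the log2 ratios per probe as the authors deposited them in the series' value table; the background correction, normalization and ratio direction are not given in the sources used here. Per the labels, total RNA was labelled indirectly with Cy3 or Cy5. Of 20355 probe rows, 14030 carried 1 gene symbol, 5 several and 6320 none; 13994 were matched to RefSeq through their Entrez gene. Values above 12 were dropped (511 on the treated arrays), each array was centred on its median, and the sign was turned where channel 1 was in Cy3. Probes needed a value on 3 untreated arrays and on 3 of 4 arrays at each time; 17709 passed and were averaged per gene. limma 3.58.1 (R 4.3.3) fitted 6 groups (1, 2, 4, 12 and 24 h and untreated; 23 arrays) and a dye term, and genes with an adjusted p under 0.05 were called. Rows of the arrays of 12 and 24 h aligned with those of 1, 2 and 4 h: unshifted rows gave the best correlation in 45 of 48 pairs, over 121 shifts. The fit was tested on simulated data. The members and gene lists were chosen with earlier results of these data known. Named genes were the 15 called genes with the largest difference in each direction, every called list member, Egr1, Postn, Zkscan1 and Mid1; other genes were named after their values were seen. The arrays' number limits the precision. Alternatives are given at the end.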

Additional observations from a re-analysis of the deposited data

Results flagged for a closer look

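Among the called genes and Mid1, 138 groups of 4 arrays were examined for 1 array far from the others, and 4 had one; chance gives about 1 in 20. Med13l was at -0.268 on 24 h replicate 1, against -0.558 to -0.527 on the other 24 h arrays. Impact was at 0.949 on 24 h replicate 4, against 0.370 to 0.456. Itsn1 was at 0.483 on 12 h replicate 1, against -0.112 to -0.034. Gpc1 was at 0.921 on 12 h replicate 2, against 0.272 to 0.360.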

How the results depend on the processing

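The 101 features called in the pooled comparison (74 higher, 27 lower) became 41 without centring, 21 with quantile normalization, 162 with a dye effect for each group, 1977 with the Cy3 arrays not turned, 6 on the 11 treated and untreated arrays alone, 5 with the 3-day arrays added, 547 with array weights, 342 against 0, and 161 with untreated replicates 1 and 2 as 2 arrays. Untreated replicate 1 had the lowest array weight, 0.165. Leaving out 1 array gave 51 to 2225. The other alternatives gave 82 to 114 calls. For 24 h against 12 h, where nothing was called, a dye effect for each group gave 27 calls, unturned Cy3 arrays 1, replicates 1 and 2 as 2 arrays 3, and leaving out 1 array 0 to 10. With the replicate block, 82 features were called, 77 of them shared. After group means and the dye term were removed, same-numbered arrays of different groups correlated at r of -0.25 to -0.027. Pairs with other numbers and the same dye correlated at -0.147 to -0.032. Same-numbered arrays always share a dye, and removing the dye term itself lowers these values. Whether the numbers pair the samples therefore cannot be told. All 69 called genes kept their sign without centring and with quantile normalization, but 49 lost their call in the first setting and 59 in the second. Against 0, 4 reversed: Bcas3 -0.0233, Klhdc7a -0.37, Zkscan1 -0.0362 and Tcte3 -0.000125. With a value required on all 11 arrays, Them7 was -0.53. With the Cy3 arrays not turned, 7 of 69 kept their sign. The differences of genes higher in the report were then Hnrnpa3 -1.37, Asic1 -1.07, H1f10 -0.94, Dnajb8 -0.92, Hsd17b11 -0.84, Prl -0.81, Tmem132e -0.74, Mid1 -0.68, Thap4 -0.66, Dab2ip -0.63, Kpna2 -0.62, Zfp286 -0.61, Bcas3 -0.60, Fcmr -0.53, Eno1b -0.52, Atp4a -0.48, Zfp410 -0.45, Dbi -0.43, Itsn1 -0.41, Matr3 -0.41, Ezh2 -0.40, Mt1 -0.39, Impact -0.37, Rom1 -0.37, Cd164 -0.34, Cstb -0.34, Abhd1 -0.34, Mfsd1 -0.33, Ftl1 -0.28, Tmem109 -0.28, Pfn1 -0.28, Ccs -0.27, Tcte3 -0.27, Tuba1c -0.26, Gpc1 -0.18, Srsf3 -0.13, Gimap9 -0.13, Ptma -0.11, Pkm -0.0718, S100a11 -0.0313, Sparc -0.0296, S100a4 -0.0177, Gps2 -0.0134, and of genes lower there Acly 0.044, Btbd7 0.0776, Dcst1 0.13, Lpl 0.14, Plk2 0.15, Entpd2 0.19, Tmsb4x 0.24, H3f3a 0.27, Rpl5 0.28, C2cd5 0.34, Ier2 0.41, Dcn 0.41, Rps3a1 0.46, Kcnh1 0.46, Med13l 0.49, Postn 0.50, Vcam1 0.51, Lox 0.58, Heph 0.65, Egr1 0.87. The causes were not tested. The number of untreated arrays, 3, limits every difference.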
